A study of Caenorhabditis elegans with 2 samples.

Results

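The 6 vitellogenin genes of Caenorhabditis elegans, vit-1 to vit-6, were examined for regions precipitated with a GFP-tagged form of ZK185.1, for which most RefSeq isoforms list a C2H2-type domain. The genes were chosen by name as the yolk genes of the adult intestine, out of 19973 nuclear protein-coding genes in the annotation, and each was studied over a window from 1000 bp upstream of its annotated start to its end. There was 1 group with 2 biological replicates, made of whole hermaphrodite young adults of strain OP474 (unc-119(tm4063) III; wgIs474), collected 56.25 h after synchronization of starved L1 larvae. All animals carried the insertion wgIs474, which expresses ZK185.1 fused at its C terminus to GFP-FLAG, together with the unc-119 mutation, and chromatin was sheared by sonication and precipitated through GFP. The promoter that drives the insertion is not given in the labels. OP474 is a single transgenic line, and the whole animals were pooled, so a region at an intestinal gene cannot be assigned to intestinal cells. With 1 group, no comparison between conditions was possible, and no expression was measured against which the tissue or stage could be checked.

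Vitellogenins are large secreted lipid-binding proteins related to vertebrate apolipoprotein B. In C. elegans they are made in the intestine of the adult hermaphrodite, released into the body cavity and taken up by growing oocytes through the receptor RME-2. Their genes are among the most strongly transcribed in the adult, and their promoters carry short elements, VPE1 and VPE2, of which VPE2 holds a GATA sequence of the kind that intestinal GATA factors such as ELT-2 bind. vit-1 and vit-2 encode one class of large yolk proteins, vit-3, vit-4 and vit-5 encode a second class, and vit-6 encodes a precursor that is cut into a pair of smaller ones.

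The 6 promoters are shown because binding at a promoter is the usual question for a DNA-binding protein, and because they set vit-3 and vit-4, which are nearly the same gene, side by side. Each runs from 250 bp upstream of the annotated start to 50 bp into the gene, 5′ to 3′ on the strand of the gene, read from the RefSeq WBcel235 assembly (ce11). Capitals mark VPE1 (TGTCAAT) and VPE2 (CTGATAA), on either strand.
vit-1 promoter, chrX:7727639-7727938, plus strand: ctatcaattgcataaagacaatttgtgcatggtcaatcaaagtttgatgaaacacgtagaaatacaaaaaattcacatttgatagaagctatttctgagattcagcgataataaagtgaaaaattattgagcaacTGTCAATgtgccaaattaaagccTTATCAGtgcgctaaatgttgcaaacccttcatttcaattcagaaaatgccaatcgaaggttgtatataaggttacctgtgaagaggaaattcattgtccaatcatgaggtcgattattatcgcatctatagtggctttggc
vit-2 promoter, chrX:5100792-5101091, plus strand: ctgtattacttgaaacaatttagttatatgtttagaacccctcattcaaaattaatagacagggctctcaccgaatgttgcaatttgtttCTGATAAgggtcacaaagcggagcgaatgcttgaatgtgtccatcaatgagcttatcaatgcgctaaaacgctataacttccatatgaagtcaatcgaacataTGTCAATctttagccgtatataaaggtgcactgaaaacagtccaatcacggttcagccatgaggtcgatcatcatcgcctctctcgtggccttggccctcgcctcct
vit-3 promoter, chrX:3572500-3572799, minus strand: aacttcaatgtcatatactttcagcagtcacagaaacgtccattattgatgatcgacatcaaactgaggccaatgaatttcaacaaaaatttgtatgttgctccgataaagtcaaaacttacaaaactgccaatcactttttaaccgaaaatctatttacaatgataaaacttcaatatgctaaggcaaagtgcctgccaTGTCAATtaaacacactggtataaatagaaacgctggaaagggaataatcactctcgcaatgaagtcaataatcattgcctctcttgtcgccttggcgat
vit-4 promoter, chrX:3563916-3564215, minus strand: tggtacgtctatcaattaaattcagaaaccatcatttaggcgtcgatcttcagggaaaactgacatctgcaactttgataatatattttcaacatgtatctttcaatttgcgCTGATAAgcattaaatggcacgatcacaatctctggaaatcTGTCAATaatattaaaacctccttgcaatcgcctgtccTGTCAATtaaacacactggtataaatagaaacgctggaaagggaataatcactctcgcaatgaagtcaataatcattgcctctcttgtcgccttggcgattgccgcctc
vit-5 promoter, chrX:3403221-3403520, plus strand: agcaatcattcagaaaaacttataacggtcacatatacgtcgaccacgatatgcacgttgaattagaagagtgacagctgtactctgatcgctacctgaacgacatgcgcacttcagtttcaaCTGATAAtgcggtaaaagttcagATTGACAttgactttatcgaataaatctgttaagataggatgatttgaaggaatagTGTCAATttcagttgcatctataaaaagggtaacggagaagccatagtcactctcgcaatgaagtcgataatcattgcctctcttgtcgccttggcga
vit-6 promoter, chrIV:8260907-8261206, plus strand: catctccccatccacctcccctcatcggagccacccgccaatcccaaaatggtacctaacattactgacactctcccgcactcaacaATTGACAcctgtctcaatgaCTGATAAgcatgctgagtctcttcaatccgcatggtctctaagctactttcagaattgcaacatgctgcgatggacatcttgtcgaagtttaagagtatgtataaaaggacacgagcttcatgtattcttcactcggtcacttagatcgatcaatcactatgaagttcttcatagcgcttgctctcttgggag

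VPE1 was found in all 6 promoters and VPE2 in 5, with vit-3 as the exception. Over all 19973 protein-coding promoters of the same length, 5.77% held VPE1 and 8.15% held VPE2. Both were searched for as known elements of vit promoters, so their presence there was given in advance. The shares below and above describe the genome and are no test of enrichment. Both elements together were present in 5 vit promoters and in 0.506% of all promoters. The GATA core (TGATAA, which lies inside VPE2) occurred in all 6, against 30.2% of all promoters. Copies on the gene's own strand were nearest to the start in vit-5, where VPE1 began 48 bp upstream, in vit-3 at 50 bp, in vit-2 at 57 bp and in vit-4 at 59 bp. The promoters of vit-3 and vit-4 shared an identical run of 100 bp and had 65.2% identity over their aligned length.

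Regions past the authors' threshold, in the list of 2053 peaks filtered by the irreproducible discovery rate (IDR), lay in the windows of vit-2 and vit-6 and of no other vit gene. That is 2 of 6 genes, beside 9.12% of all protein-coding genes, and 13.0% of the 161 genes whose windows were as long as those of the vit genes. Each of these genes held 4 thresholded summits, and all 8 lay in coding exons, which make up 79.0% of the vit-2 window and 78.6% of the vit-6 window. None of them was upstream of the start, and 3.10% of all genes had a thresholded summit between their start and end. Only 0.0851% of all genes (17 of 19973) had 4 or more thresholded summits in their window, and 1.24% of the genes of like window length, which are vit-2 and vit-6 themselves. The share of thresholded nuclear summits in a coding exon of any gene was 7.72% (157 of 2034), so that these genes together accounted for 5.10% of such summits. No test was made of these counts, since the genes were proposed with earlier results of these data known.

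**Figure D1:**
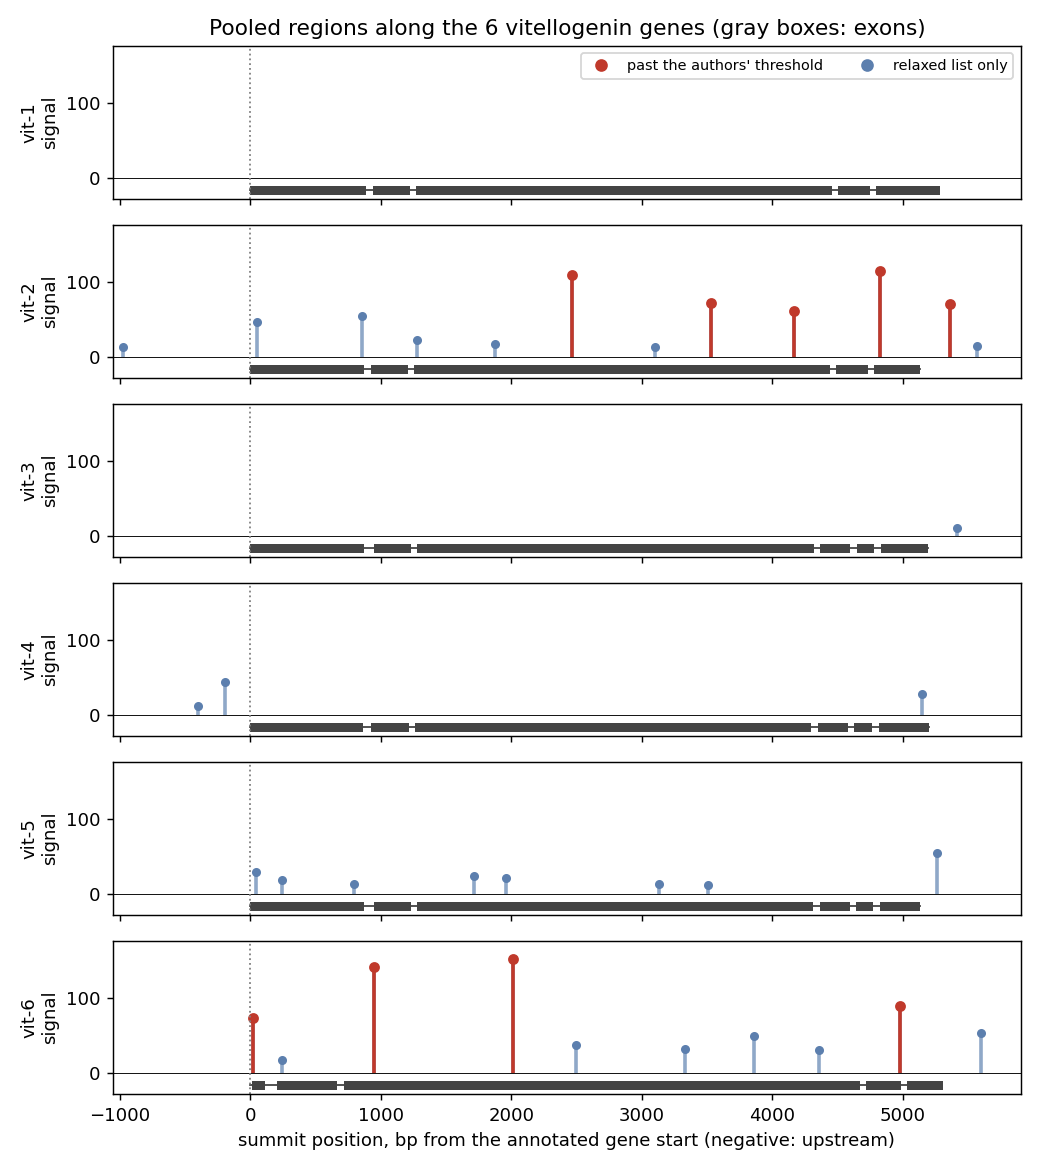
Signal (authors' peak height) of each region in the pooled list against the distance of its summit from the annotated gene start in bp, for the 6 vit genes, with red points for regions past the authors' threshold, blue points for the others and gray boxes for exons. The red points are spread over the bodies of vit-2 and vit-6, with the highest at 151 in vit-6, while vit-1 and vit-3 have no region between the upstream limit of the window and the gene end.

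vit-6 (WBGene00006930; chromosome IV, 8261157 to 8266459, plus strand) had the strongest region of the family. Its summit lay 2010 bp downstream of the start in coding exon 3, where the pooled signal was 151. Replicate 1 gave 92.5 at this place, and replicate 2 gave 56.2. Signal is the authors' peak height, which has no stated scale, so it was read by rank within a list. This region ranked 475 of 30000 in the pooled list, 196 in replicate 1 and 844 in replicate 2, and thus stood high in each replicate. A further region at 948 bp, in the same exon, had a pooled signal of 141. In replicate 2 its match had 60.3 and rank 762, whereas in replicate 1 the summit within 100 bp had 12.4 and rank 4773, and the stronger neighbour, 816 bp from the start, had 28.5.

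The other thresholded regions of vit-6 lay at its ends. The one at the start, with its summit 17 bp downstream in coding exon 1, had a pooled signal of 73.2 and overlapped the printed promoter. In replicate 1 it had 43.2, and in replicate 2 no summit lay within 100 bp, the nearest being 193 bp away. It is the only thresholded vit summit in a start window, which runs from 1000 bp upstream to 200 bp downstream of the start, a window in which 6.77% of all genes had one. The region at 4976 bp, in coding exon 4, had a pooled signal of 88.9, with 23.1 in replicate 1 and 29.3 in replicate 2. Between these, 5 weaker pooled regions, all in coding exons, had signals from 17.9 to 49.7.

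vit-2 (WBGene00006926; chromosome X, 5101042 to 5106169, plus strand) carried its thresholded regions from the middle of the gene to its 3′ end. The highest, 4820 bp from the start in coding exon 5, had a pooled signal of 114 and rank 772, with 60.4 at rank 439 in replicate 1 and 60.9 at rank 749 in replicate 2. The region at 2462 bp, in coding exon 3, had a pooled signal of 108, while replicate 1 gave 40.4 and replicate 2 gave 13.9. Those at 3530 and 4162 bp, in the same exon, had pooled signals of 71.6 and 60.8. In replicate 1 they had 21.3 and 48.3, and in replicate 2 both were lower in rank, with 13.4 at rank 7026 and 12.8 at rank 7481. At the start of vit-2, a pooled region 55 bp downstream had a signal of 45.9 and rank 2790, short of the threshold, whose weakest peak had 57.0. The region at 852 bp, with 54.7 and rank 2172, also fell just short, with 8.95 in replicate 1 and 36.1 in replicate 2.

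The strongest thresholded region of each of these genes is shown because its summit lies in a coding exon, far downstream of the gene's own start. The vit-6 region is the whole deposited interval, and that of vit-2 is the 151 bp centred on the summit, both 5′ to 3′ on the strand of the gene, with capitals for the 7 bases centred on the summit. The first 35 bp of the vit-2 stretch belong to the intron before exon 5, and the rest, like the whole vit-6 region, is exonic.
vit-6 strongest region, chrIV:8263153-8263328, plus strand: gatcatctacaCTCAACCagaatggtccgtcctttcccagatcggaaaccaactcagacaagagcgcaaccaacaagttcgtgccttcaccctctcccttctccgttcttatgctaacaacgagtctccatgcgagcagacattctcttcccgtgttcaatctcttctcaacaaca
vit-2 strongest region, chrX:5105787-5105937, plus strand: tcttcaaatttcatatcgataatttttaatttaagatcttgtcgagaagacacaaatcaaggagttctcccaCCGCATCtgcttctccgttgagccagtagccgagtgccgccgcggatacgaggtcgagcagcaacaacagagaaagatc

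Neither stretch held VPE1, VPE2 or the GATA core. The G and C content was 48.9% in the vit-6 region and 45.7% in the vit-2 stretch, intron included. Within 50 bp of the 8 thresholded summits it ran from 38.6% to 56.4% with a median of 48.5%. It was 45.6% over the whole vit-6 window and 46.5% over that of vit-2. These are not like for like, since all 8 summits lay in coding exons and the windows include upstream and intron sequence. The content of the coding sequence alone was not measured. The windows of the other vit genes had 42.9% to 44.1%.

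In the relaxed pooled list, whose 30000 regions are labelled as peaks and background for the IDR procedure, 4 of 6 vit genes had a region, beside 51.3% of all genes and 57.8% of those with windows of like length. vit-2 had 10, vit-6 had 9, vit-5 had 7 and vit-4 had 3, while vit-1 and vit-3 had 0. By density, vit-2 had 1.63 regions per kb of window and vit-6 had 1.43, values that 1.25% and 2.51% of all protein-coding genes reached or passed. vit-5 had 1.14 per kb, which 6.25% of genes reached, and vit-4 had 0.484, which 31.2% reached. The median over the 6 genes was 0.813 per kb, against 0.155 over all genes, where genes without a region count as 0. Counted over the whole length of the windows, the density was 0.779 per kb for the vit genes and 0.326 for all genes, a smaller contrast. Of the 29 regions, 25 had their summit in a coding exon (86.2%), 3 were upstream, 1 was in an untranslated exon and 0 were in introns. Coding sequence made up 78.1% of the 6 windows together, so this share is read against the composition of the windows. Over the whole pooled list 26.1% of nuclear summits lay in coding exons, which cover 19.8% of chromosome X and 22.5% of chromosome IV. The vit introns are short, with 192 to 271 bp in all per gene.

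vit-5 (WBGene00006929; chromosome X, 3403471 to 3408603, plus strand) had weak regions along its body, with pooled signals from 11.6 to 29.0. The highest of them, at 46 bp from the start, ranked 5552. In replicate 1 the strongest region in the window had 14.5 and rank 3738, and in replicate 2 it had 15.5 and rank 5581. These lay at different places, 3474 bp and 313 bp from the start. A stronger region had its summit 129 bp past the gene end, inside the convergent gene unc-78. It had 54.6 in the pooled list and 40.0 in replicate 1, and its nearest replicate 2 summit was 349 bp away.

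vit-4 (WBGene00006928; chromosome X, 3558769 to 3563965, minus strand) was the only gene of the family whose strongest pooled region lay upstream. Its summit was 197 bp upstream of the start, with a pooled signal of 43.4 and rank 3003, and it overlapped the printed promoter. The replicates differed widely there, with 6.21 at rank 13256 in replicate 1 and 34.1 at rank 1748 in replicate 2. A second upstream region, 397 bp from the start, had 11.97 in the pooled list and 17.2 in replicate 2, with no summit within 100 bp in replicate 1. The third, in the untranslated end of exon 6, had 27.6 in the pooled list and no match within 100 bp in either replicate.

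vit-3 (WBGene00006927; chromosome X, 3567355 to 3572549, minus strand) and vit-1 (WBGene00006925; chromosome X, 7727889 to 7733168, plus strand) were nearly empty. For vit-3 the pooled and replicate 2 lists had no region in the window, and replicate 1 had 1, with its summit 150 bp upstream, a signal of 12.9 and rank 4490. For vit-1 all lists had 0 regions in the window, although 55.6% of all genes had at least 1 in replicate 1 and 53.7% in replicate 2. Among genes with windows of like length, 64.0% had one in replicate 1 and 63.4% in replicate 2. The vit genes with at least 1 region numbered 5 in replicate 1 and 4 in replicate 2. The weakest regions listed anywhere had signals of 8.56 in the pooled list, 2.34 in replicate 1 and 4.07 in replicate 2.

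Regions were matched between the replicates by their summits. Of the 8 thresholded regions, 7 had a summit within 100 bp in both replicates, and the exception was the one at the start of vit-6. The thresholded list comes from an IDR procedure that uses both replicates, and it equals the 2053 strongest pooled regions. Over all its nuclear peaks the share was 80.6%. Of the 29 pooled regions in vit windows, 13 were matched in both replicates (44.8%), against 20.3% of the pooled list. These shares are not like for like. Thresholded regions were 8 of the 29 and gave 7 of the 13 matches, but made up 2053 of the 30000 pooled regions. The share expected from the density of regions alone was not estimated. The 13 comprised 6 in vit-2, 5 in vit-6 and 1 each in vit-4 and vit-5. A further 12 were matched in 1 replicate and 4 in neither. When any overlap of the intervals counted, 23 of 29 were matched in both, and at 50 bp 8 were. Replicate 1 had 27 regions in the 6 windows and replicate 2 had 29. Among the 2053 strongest regions of each replicate, vit-2 and vit-6 had a summit in both, beside 6.09% of all genes, and vit-4 had one in replicate 2 alone, where 9.33% of genes had one, against 8.71% in replicate 1.

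**Figure D2:**
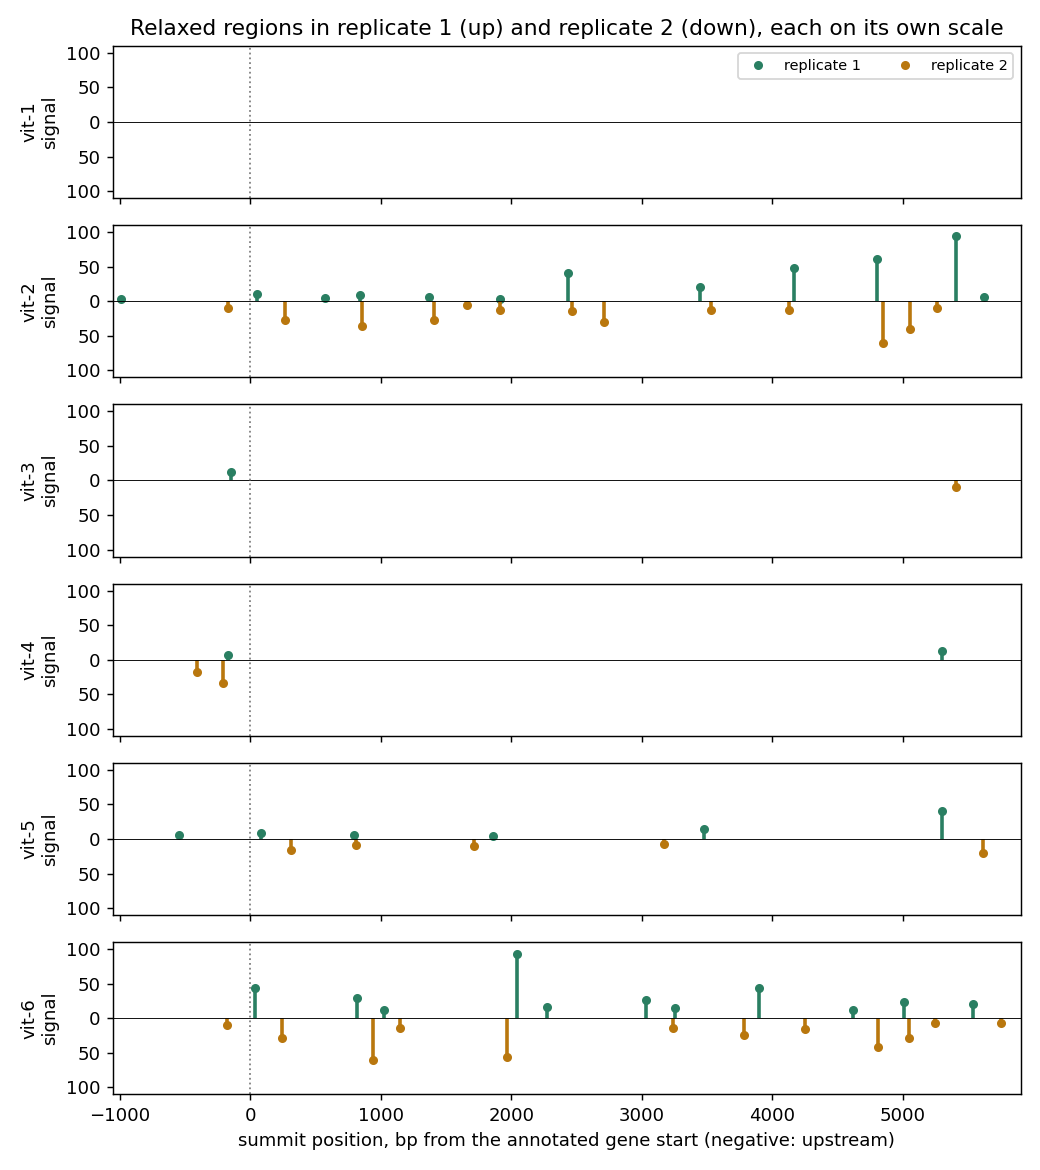
Signal of each relaxed region in replicate 1 (upward, green) and replicate 2 (downward, orange) against the distance of its summit from the annotated gene start in bp, for the 6 vit genes, with each replicate on the authors' own scale. Both replicates have regions along vit-2 and vit-6, the highest in the windows being 92.5 in replicate 1 and 60.9 in replicate 2, whereas vit-1 is empty in both.

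Within 500 bp past the gene end, the pooled list had regions at 4 of the genes. A thresholded summit lay 234 bp past the end of vit-2, in the neighbouring gene C42D8.9 on the opposite strand, with a pooled signal of 69.8. It was the strongest of the locus in replicate 1, with 94.8 and rank 189, but weak in replicate 2, with 9.76 and rank 11268. A pooled region 292 bp past the end of vit-6, inside the neighbouring gene K07H8.8, had 53.3. One 220 bp past the end of vit-3 had 10.2. The neighbouring genes ranged from 0 to 9 pooled regions in their windows. Beside vit-2, C42D8.9 had 2, of which 1 was the thresholded one, and acn-1 had 3 with signals of at most 20.4. Beside vit-5, unc-78 had 6, the strongest being the region of 54.6 past the vit-5 end, and C04F6.9 had 0. Beside vit-6, K07H8.8 had 1, the region of 53.3, and K07H8.7 had 0. Around vit-1, set-12 had 0 and spp-14 had 1 with a signal of 36.3. Beside vit-3 and vit-4, T27A10.5 had 0 and rgs-7 had 9, of at most 26.9.

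Several of the genes are near-copies of each other, so that short reads from them cannot always be told apart. vit-3 and vit-4 had 99.0% identity in their coding sequence and 98.7% in their protein, and vit-5 had 97.7% and 97.8% coding identity to them. vit-1 and vit-2 had 93.8% in coding sequence. vit-6 stood apart, with 29.6% to 30.7% protein identity to the others. Of all words of 36 bases in the window, 33.1% occurred once in the genome for vit-3, 30.02% for vit-4 and 51.9% for vit-5, against 100% for vit-6. The shares were 83.8% for vit-1 and 83.4% for vit-2. With words of 50 bases they were 37.1%, 33.2% and 59.0% for vit-3, vit-4 and vit-5. Read length and the handling of reads that map to several places were not given in the sources used here.

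**Figure D3:**
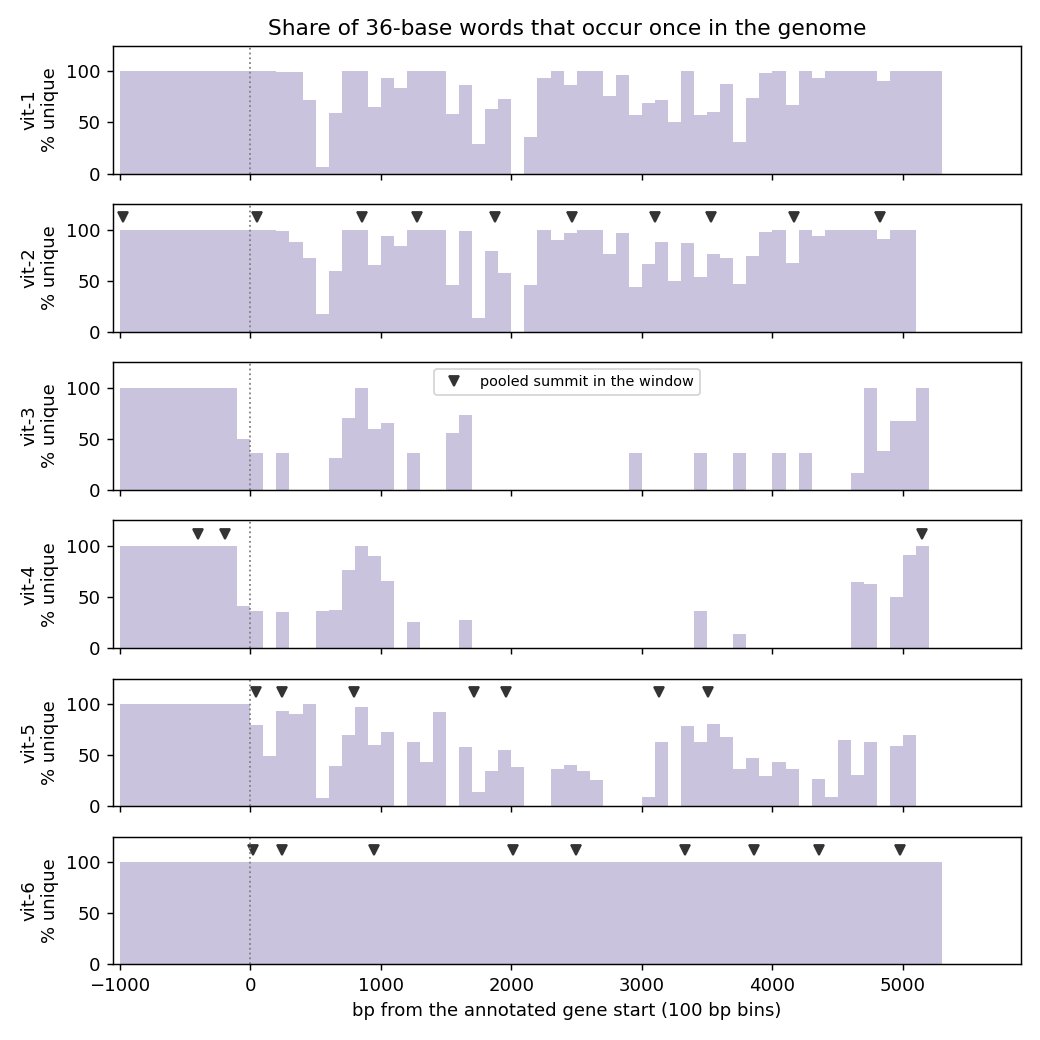
Share of 36-base words that occur once in the WBcel235 genome, in 100 bp bins along each vit gene from 1000 bp upstream, with triangles at the summits of the pooled regions in the window. The bodies of vit-3 and vit-4 are mostly repeated and hold a single triangle, in the last exon of vit-4, while vit-1 and vit-2 have nearly the same profile, with 0 and 10 triangles.

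The regions of vit-3, vit-4 and vit-5, the genes with the lowest shares, lay in different kinds of sequence. The 3 pooled regions of vit-4 all lay where every 36-base word within 100 bp of the summit was unique, in the upstream sequence and the last exon, and the single replicate 1 region of vit-3 did too. In the gene bodies of vit-3 and vit-4, where 21.1% and 17.6% of words were unique, the pooled list had no region in a coding exon. In vit-5, where 42.4% of words in the gene were unique, all 7 pooled summits lay in partly repeated stretches, with 42.2% to 83.7% of words unique, and a replicate 1 summit lay where 21.7% were. The pair vit-1 and vit-2 had like shares and unlike counts. The vit-1 window held as large a share of unique words as that of vit-2, with 80.7% within the gene against 80.1%, and both had 100% upstream, yet vit-1 had 0 pooled regions and vit-2 had 10. The 4 thresholded vit-2 summits lay in stretches where 59.0% to 94.6% of words were unique, and those of vit-6 where all were. The part of repeated sequence in the counts of vit-3, vit-4 and vit-5 was not tested.

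Thresholded summits in coding exons were also counted over all genes, without matching for the coding share of the windows. Coding exons make up 79.0% of the vit-2 window and 78.6% of the vit-6 window. Of all genes, 0.716% (143) had a thresholded summit in one of their own coding exons, and 0.0150% had 4 or more, which are vit-2, vit-6 and icl-1, the last encoding the bifunctional glyoxylate cycle enzyme. cpz-1 had 3 in coding exons. icl-1, level with vit-2 and vit-6 at 4, and cpz-1, next after them, are named from this count after its values were seen. Of the 17 genes with 4 or more thresholded summits in their window, 11 had none of them in a coding exon, among them mnk-1 with 7 and skn-1 with 4. The windows of mnk-1 and skn-1 are longer than those of the vit genes, at 13624 and 10346 bp.

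**Figure D4:**
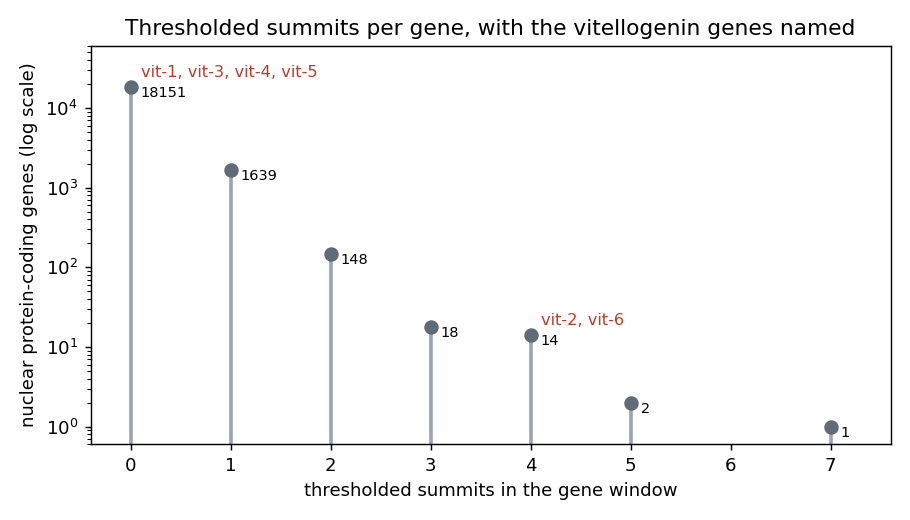
Number of nuclear protein-coding genes (log scale) by the number of thresholded summits in the gene window, with the count beside each point and the vit genes named in red. vit-2 and vit-6 are among the 14 genes with 4 summits, and the other vit genes are among the 18151 with 0.

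Other genes of the yolk pathway, taken from a list of 30, had thresholded summits in 7 windows (23.3%, beside 9.12% of all genes). Of the 18 regulators of vit transcription, 5 had one. rict-1, a subunit of the target-of-rapamycin complex that acts in fat metabolism, had the strongest, 515 bp upstream of its start, with a pooled signal of 240, 122 in replicate 1 and 89.1 in replicate 2. skn-1, which encodes a stress response factor of the intestine, had 4, led by one with 106 in an intron. lin-14, a gene of larval timing, had a summit 157 bp upstream with 96.9, and ceh-60, a homeobox gene that activates vit transcription, and the insulin pathway factor gene daf-16 had intronic ones with 65.0 and 62.4. Several of these windows are much longer than those of the vit genes, at 27206 bp for daf-16 and 21312 bp for lin-14. No thresholded summit lay in the windows of elt-2, unc-62, pqm-1 or mab-3, whose strongest pooled regions had 13.4, 40.8, 44.1 and 21.7.

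For lipid loading, dsc-4, which encodes the microsomal triglyceride transfer protein, had no thresholded summit and a strongest pooled signal of 19.9. Of 11 genes for uptake and endocytic traffic, 2 had a thresholded summit (18.2%, beside 9.12% of all genes). rab-7, which encodes a late endosome GTPase, had one 786 bp upstream with 135. rme-4 had one 2009 bp downstream of its start with 62.6, outside the transcript with the longest coding sequence. The strongest region in the window had 69.35 in replicate 1 and 19.2 in replicate 2 for rab-7, and 22.5 and 20.4 for rme-4. rme-2, the yolk receptor gene, had 2 pooled regions of at most 20.6. Only 4 of the 7 yolk pathway genes kept a thresholded summit when the start window alone was used, in which 6.77% of all genes had one. The count was 5 with the window beginning 500 bp upstream, which leaves out the summits of rict-1 and rab-7. It was 4 when a summit counted only for its nearest start.

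Of 26 other genes of the intestine, 4 had a thresholded summit (15.4%, beside 9.12% of all genes). They included pgp-1, which encodes a P-glycoprotein transporter, with 108 in an intron, and ifb-2, an intermediate filament gene, with 72.2 in an intron. The others were app-1 with 64.5, 548 bp upstream, and the lysozyme gene lys-1 with 62.6, 181 bp upstream. In replicate 1 the strongest region in the window had 35.1 for pgp-1, 8.53 for ifb-2, 14.3 for app-1 and 12.7 for lys-1. In replicate 2 these values were 55.5, 49.8, 30.5 and 38.0. The count was 2 with the strongest regions of replicate 1 alone, beside 8.71% of all genes. It was 7 with those of replicate 2 alone, beside 9.33%. None of these genes, and 1 of the 30 yolk pathway genes, had 4 thresholded summits. The median density of pooled regions was 0.813 per kb for the vit genes, 0.696 for the yolk pathway and 0.845 for the intestinal genes, against 0.155 for all genes. Counted over the whole length of the windows, the density was 0.326 per kb for all genes and 0.779 for the vit genes. That density was not computed for the yolk pathway or the intestinal genes.

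The genes most like vit-6 were sought by the Euclidean distance of the log2 signals of the strongest region in the window in each replicate, over 8702 genes with a region in both. For vit-6 these were different regions, with 92.5 at 2046 bp in replicate 1 and 60.3 at 942 bp in replicate 2. They were xbp-1, which encodes a factor of the unfolded protein response, nhr-255, which encodes a nuclear hormone receptor, and C37A2.8, at distances of 0.09, 0.10 and 0.12. Each had 1 thresholded summit in its window, against 4 in that of vit-6. Their windows are shorter, at 2550, 2689 and 2382 bp against 6303 bp for vit-6. The tagged gene ZK185.1 itself had no thresholded summit in its window. The strongest of its 3 pooled regions had 40.9 and rank 3301, below the strongest of vit-6, vit-2 and vit-4 in that list. Its strongest region had 26.1 at rank 1475 in replicate 1 and 52.4 at rank 945 in replicate 2. Both stood above the strongest of vit-4, at ranks 13256 and 1748.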

How the data were processed

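Peak lists of 2 replicates on ce11 were used. Per the manifests deposited with each library, the authors derived relaxed lists from each replicate's alignment and from both together, each with a further shared file not described there, and an optimal IDR-thresholded list from these. Aligner, peak caller, settings and the IDR cutoff were not given in the sources used here. Signal is the authors' deposited peak height, and its scale differs between lists. The −log10 q-value column, as deposited by the authors, served in 1 alternative ranking. Depth is unknown, so no interval was given. Lists on ce10 were not analysed here.

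Genes came from Ensembl release 115 (WBcel235) and sequences from RefSeq. A region was assigned by its summit, places refer to the transcript with the longest coding sequence, and replicate summits within 100 bp were matched. The thresholded peaks are the 2053 strongest pooled regions. Identities came from global alignments in Biopython 1.88, with Python 3.11.15. The code that assigns summits to windows was checked on made-up genes with known answers. No statistical test was made, and p-values would in any case rest on 2 samples. The vit genes, lists and alternatives were chosen with earlier results of these data known. Named genes were the vit genes, their neighbours, listed genes with a thresholded summit, ZK185.1 and the 3 genes nearest to the vit gene with the highest signal. Other listed genes were named for their role, and icl-1, cpz-1 and mnk-1 for their counts of thresholded summits, after these were seen.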

Additional observations from a re-analysis of the deposited data

How the results depend on the processing

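Of 53 alternative values of the counts in the text, 42 stayed within 1.5 times the value reported and 11 moved further. The number of vit genes with a thresholded summit was 1 with the start window alone, and 2 to 3 with 1 replicate alone. The yolk pathway count of 7 fell to 5 with the window beginning 500 bp upstream. It fell to 4 with the start window alone, with the nearest start only and with the stronger 1026 of the thresholded peaks. With 1 replicate alone it was 9 to 10. The intestinal count of 4 was 2 with the start window alone and 1 with the stronger 1026 of the thresholded peaks. With 1 replicate alone it was 2 to 7. Of all genes, 6.77% had a thresholded summit in the start window. Among the 2053 strongest regions of each replicate, 8.71% had one in replicate 1 and 9.33% in replicate 2. For the nearest start, the 500 bp limit and the stronger 1026 peaks the share of all genes was not counted. The 29 pooled regions in vit windows fell to 18 away from thresholded summits, and were 27 to 29 with 1 replicate alone. The 13 regions matched in both replicates were 8 at 50 bp and 23 by any overlap. The cause of these moves was not tested, apart from the smaller windows and lists. The strongest 3000 regions of the pooled list held the best region of 2 vit genes, and vit-4 fell just outside at rank 3003. The count was 3 by any overlap of the interval, among the strongest 3000 of replicate 2 and by −log10 q. It was also 3 with the window extended 500 bp past the gene end, a setting chosen after seeing the data. The share of all genes meeting this cut was not counted. No paired analysis was possible because there was 1 group. Unknown depth limits every statement on absent regions.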
